A study of Mus musculus with 12 samples.

Results

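The antioxidant and glutathione enzymes of MIN6 cells were described here as 50 genes of the 15964 genes with a probe set on the arrays. They were taken by symbol, namely every gene of the glutathione peroxidases (Gpx), peroxiredoxins (Prdx), superoxide dismutases (Sod), thioredoxin reductases (Txnrd) and glutathione S-transferases (Gst), together with catalase, the enzymes of glutathione synthesis and recycling, the thioredoxins, the heme oxygenases, Nqo1 and the metallothioneins Mt1 and Mt2. The 50 genes were covered by 89 of the 29131 probe sets that carry a single gene symbol, and each gene was represented by its probe set with the highest mean. Prdx1, Prdx5 and Prdx6 had no such probe set, so that these 3 genes were not analysed here.

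MIN6 is a β-cell line from an insulinoma of a mouse whose islet β cells express the SV40 T antigen, and clone 4 is a single subclone that was isolated by limiting dilution from parental MIN6 cells of low passage. The 4 populations were high-passage parental cells (Pr-HP, passages 35–40), high-passage clone 4 cells (C4-HP, passages 40–50), low-passage clone 4 cells (C4-LP, passages 17–20) and low-passage parental cells (Pr-LP, passages 17–20). The study describes Pr-HP as non-responder cells, which have lost glucose-stimulated insulin secretion (GSIS), and C4-HP, C4-LP and Pr-LP as responder cells, which have kept it. All 4 populations grew in the same high-glucose, serum-containing medium with 2-mercaptoethanol, a reducing agent. RNA of each population was hybridised once to chip A, chip B and chip C of the Affymetrix U74 mouse set, giving 12 arrays with no replicates. Precision is limited by this small number of arrays, and no error can be given for a single population.

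Cells reduce hydrogen peroxide and organic peroxides through 3 connected routes. Catalase acts on peroxide directly, glutathione peroxidases draw electrons from glutathione, and peroxiredoxins draw them from thioredoxin, while superoxide dismutases supply the peroxide from superoxide. Glutathione is made by the glutamate-cysteine ligase Gclc/Gclm and by Gss, and its oxidised form is recycled by Gsr. Glutathione S-transferases join glutathione to electrophiles. Many of these genes, among them Nqo1, Hmox1, Gclm and Txnrd1, are known targets of the transcription factor Nrf2 (Nfe2l2), and β cells are known for low levels of catalase and glutathione peroxidase compared with other tissues.

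Deposited intensities were linear, with 1 value per probe set and array, and the medians of the 4 arrays of a chip were nearly equal (214.2–216 for A, 161.9–162.7 for B, 92.48–92.94 for C). A floor was set at the 20th percentile of each chip (67.29, 58.63 and 29.1 units in the same order), and values under it were raised to it before a ratio or a test. A gene was tested if at least 1 of its 4 values was above the 40th percentile of its chip, which 43 of the 50 genes were. The 7 others were Gsta1, Gsta3, Gsta4, Gstt3, Gstt4, Gpx5 and Gpx8, with values between 24.8 and 132, and Gsta3, Gstt4 and Gpx8 were under the floor in all 4 populations. Of 10 β-cell markers 8 were measured, all above the floor in every population, with summed intensities of 39886 in Pr-HP, 38173 in C4-HP, 44082 in C4-LP and 40177 in Pr-LP. Ins2 alone gave 14771–15526 units of each sum, and single markers went opposite ways. Pcsk1 was highest in Pr-HP (1379, against 425.0–770.8) and Nkx2-2 was lowest there (1396, against 1501–2409). The 3′ control probe sets of Gapdh and Actb, which encode a glycolytic enzyme and a cytoskeletal protein, were 1.22 to 1.48 times as high in Pr-HP as in the mean of the responder cells on the 3 chips.

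In 26 of the 43 tested genes the highest and the lowest of the 4 values differed by less than 1.5-fold (60.5%, a smaller share than the 78.6% of all 12267 genes tested). They differed by less than 1.2-fold in 18 genes (41.9%, against 43.7% of all genes), with a median ratio of 1.28 against 1.23 for all genes. A difference of at least 2-fold between any 2 populations, with the higher value at 100 units or more, was found for Gpx3, Nqo1, Gsto1 and Txnrd2, which are 9.3% of the genes, against 7.35% of all genes tested. As cells of a population were measured in bulk, a smaller share of expressing cells and less RNA per cell cannot be told apart in any of these values.

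**Figure D1:**
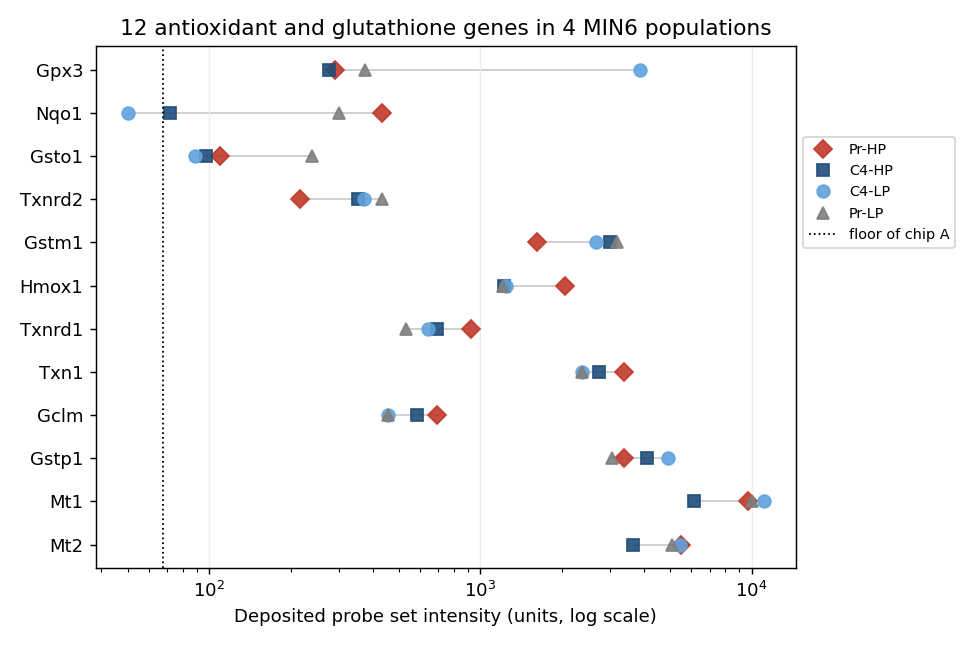
Deposited intensity (units, log scale) of 12 genes in Pr-HP (red diamonds), C4-HP (dark squares), C4-LP (light circles) and Pr-LP (grey triangles), 1 array each. A grey line joins the lowest and the highest value of a gene and the dotted line is the floor of chip A. Gpx3 stands apart in C4-LP, at 3890 units, and Nqo1 is near or under the floor in both clone 4 populations.

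Gpx3, the secreted glutathione peroxidase of plasma, had an intensity of 290.0 in Pr-HP, 276.4 in C4-HP, 3890 in C4-LP and 376.1 in Pr-LP. C4-LP alone was high, and the 3 other populations lay between 276.4 and 376.1 units. Among 11957 genes that reached 100 units, with values under the floor raised to it, the ratio between C4-LP and C4-HP was the largest for Gpx3, and that between C4-LP and Pr-LP the fourth largest. In the limma comparisons below, this single high value gave Gpx3 the widest error of all genes of the group (1.65 ± 1.36 on the log2 scale for clone 4 minus parental cells, SE, adjusted p = 0.975), and without C4-LP the log2 difference was −0.26. A further probe set of Gpx3 on chip C had 79.4 in Pr-HP, 67.4 in C4-HP, 70.8 in C4-LP and 74.5 in Pr-LP, so that the high value of C4-LP rests on 1 probe set. The summed markers of β cells, delta cells and fibroblasts were also highest in C4-LP, by much smaller margins (44082, 359.1 and 2509.1 units in C4-LP, against at most 40177, 350.4 and 2471 in the others). Col1a1, a fibroblast marker, was lowest in C4-LP (602.3, against 614.7–670.6).

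The proximal promoter of Gpx3 is shown because the gene had the largest difference of the group. The window, chr11:54902604-54902903 on the plus strand of GRCm38.p6 (RefSeq), runs from 250 bases before to 50 bases after the annotated start, with the 13 CpG dinucleotides in capitals. The median over 32851 such windows of mouse genes is 7.0 CpGs, with quartiles of 3.0 and 20.0. DNA methylation in this window was not analysed here.
Gpx3: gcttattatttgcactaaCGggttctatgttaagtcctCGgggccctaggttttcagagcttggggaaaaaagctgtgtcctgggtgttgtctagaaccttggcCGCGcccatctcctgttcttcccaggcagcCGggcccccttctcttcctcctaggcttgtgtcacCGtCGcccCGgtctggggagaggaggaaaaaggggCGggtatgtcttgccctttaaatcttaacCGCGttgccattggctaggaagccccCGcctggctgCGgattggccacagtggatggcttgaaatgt

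The other tested glutathione peroxidases varied by at most 1.70-fold. Gpx1, the abundant cytosolic enzyme, had 891.2 in Pr-HP, 877.3 in C4-HP, 902.0 in C4-LP and 802.4 in Pr-LP, and Gpx4, which reduces lipid peroxides in membranes, had 541.0 in Pr-HP, 354.6 in C4-HP, 436.9 in C4-LP and 471.8 in Pr-LP. Gpx2, best known from the gut, had 188.3 in Pr-HP, 175.6 in C4-HP, 157.5 in C4-LP and 268.5 in Pr-LP. Gpx6 (308.6–338.6) and Gpx7, a peroxidase of the endoplasmic reticulum (196.5–224.6), varied by 1.10-fold and 1.14-fold.

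Nqo1, a quinone reductase, divided the parental from the clone 4 cells. Its intensity was 71.8 in C4-HP and 50.1 in C4-LP, against 432.4 in Pr-HP and 301.9 in Pr-LP, and the groups did not overlap. Both clone 4 values were below both parental values in 18% of all genes tested. C4-HP was 6.02-fold lower than Pr-HP, and C4-LP, whose value is under the floor, at least 4.49-fold lower than Pr-LP. In limma, the log2 difference of clone 4 minus parental cells was −2.38 ± 0.21 (SE), with an unadjusted p of 0.000337 and an adjusted p of 0.823, so that Nqo1 did not pass the test. The second probe set of Nqo1 had the same order of groups, with 45.0 in C4-HP and 42.2 in C4-LP, both under the floor, against 265.1 in Pr-HP and 135.6 in Pr-LP. The first probe set has the suffix for relaxed design rules (_r_at) and the second that for probes shared within a gene family (_f_at). The values of both may include RNA of a related gene. In the parental cells Nqo1 was 1.43-fold higher in Pr-HP than in Pr-LP with the first probe set and 1.96-fold with the second.

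Clone 4 cells were compared with parental cells over all genes to ask which differences followed the origin of the cells at both passages. The error of this fit comes from the differences between low and high passage within each lineage, and these populations are not replicates. As clone 4 is a single subclone, its own traits cannot be told apart from those of subcloning. Of the 43 genes, 0 passed limma at an adjusted p of 0.05 in either direction, as did 0% of all genes tested (clone 4 higher 0%, lower 0%). At an unadjusted p of 0.05, 1 gene was higher in clone 4 (Gstp1, 2.33%, against 3.33% of all genes) and 1 was lower (Nqo1, 2.33%, against 2.39%). Both shares are no larger than those of all genes. Gstp1, the pi class transferase, had 4107 in C4-HP and 4901 in C4-LP, against 3381 in Pr-HP and 3048 in Pr-LP, a log2 difference of 0.48 ± 0.14 (SE, adjusted p = 0.924). Both clone 4 values were above both parental values in 5 of the 43 genes (11.6%, against 16.9% of all genes) and below both in 8 (18.6%, against 18%). Prdx4, the peroxiredoxin of the secretory pathway, belonged to the 5, with 979.1 in C4-HP and 1317 in C4-LP, against 759.1 in Pr-HP and 909.5 in Pr-LP (adjusted p = 0.973). Its other probe set did not share this order, with 485.4 in C4-HP and 425.3 in C4-LP, against 447.1 in Pr-HP and 470.0 in Pr-LP.

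At high passage, C4-HP was past 2-fold lower than Pr-HP in 1 of the 43 genes, Nqo1 (2.33%, against 1.74% of all genes), and past 2-fold higher in 0 (against 1.13%). At low passage, C4-LP was past 2-fold higher than Pr-LP in 1 gene, Gpx3 (2.33%, against 1.84%), and lower in 2, Nqo1 and Gsto1 (4.65%, against 1.17%). Gsto1, an omega class transferase that also reduces dehydroascorbate, had 109.3 in Pr-HP, 97.5 in C4-HP, 88.8 in C4-LP and 239.5 in Pr-LP. Only Pr-LP was above the 40th percentile of chip A, at 152.7 units, and with the floor raised to that percentile the difference of Gsto1 no longer reached 2-fold.

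**Figure D2:**
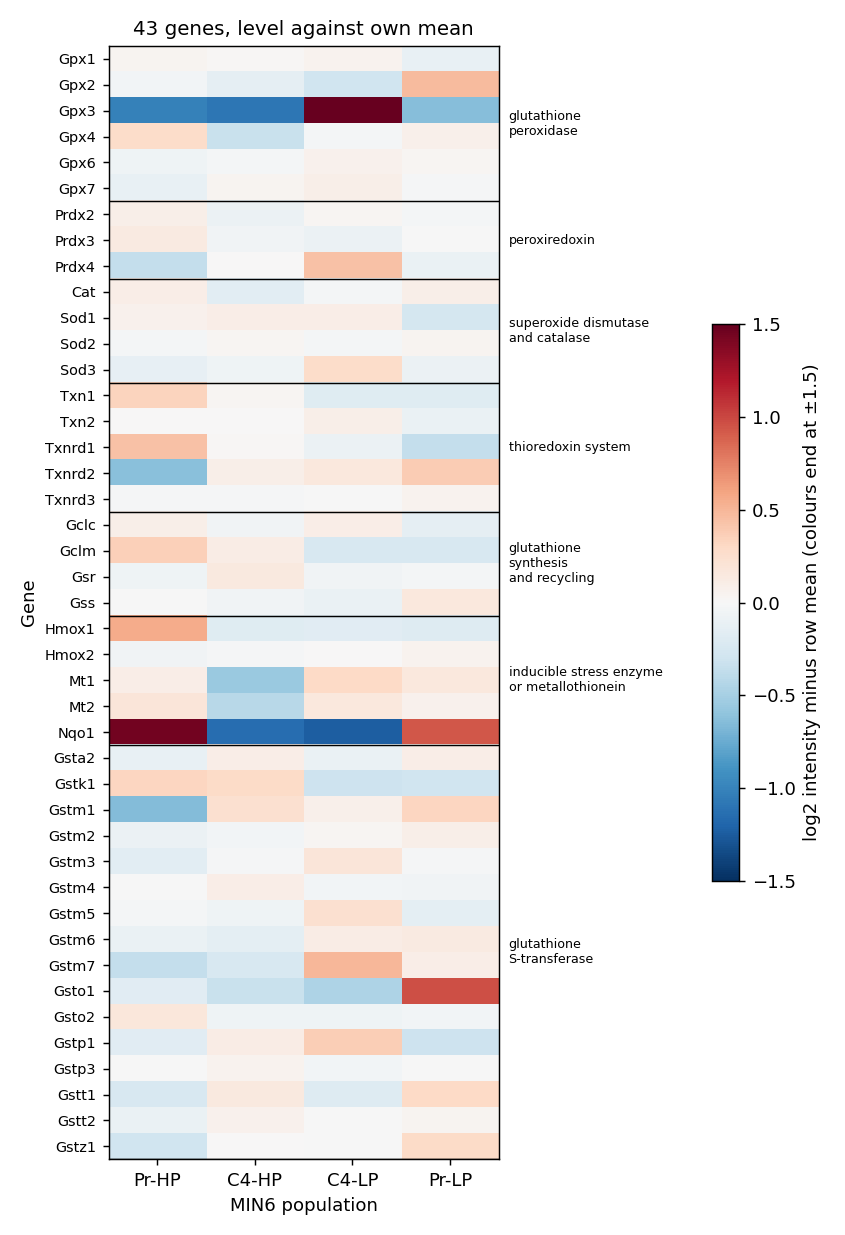
Log2 intensity of the 43 tested genes in each population minus the mean of the gene over the 4 populations, with values under the floor raised to it, ordered by class. Colours end at 1.5 in either direction, a limit that Gpx3 in C4-LP exceeds. Strong colours are confined to a few rows, Gpx3, Nqo1, Gsto1, Txnrd2 and Gstm1 among them, and most rows are pale.

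Pr-HP was compared with the 3 responder populations to ask which genes of the group stood apart in the cells without GSIS. Of the 43 genes, 0 passed limma at an adjusted p of 0.05, against 0.0571% of all genes tested that were called higher in Pr-HP and 0.0245% that were called lower. At an unadjusted p of 0.05, 4 genes were higher in Pr-HP, namely Hmox1, Txn1, Txnrd1 and Gsto2 (9.3%, against 5.7% of all genes), and 2 were lower, Gstm1 and Txnrd2 (4.65%, against 4.24%). The median log2 difference of the 43 genes was −0.04, against 0.0004 for all genes. Pr-HP was the highest population in 12 genes (27.9%, against 29.6%) and the lowest in 16 (37.2%, against 27.8%). These p-values take their error from the differences among the 3 responder populations, which are not replicates of each other, and Pr-HP, with 1 array per chip, was assumed to vary as much.

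Hmox1, the inducible heme oxygenase, had 2049 in Pr-HP, 1225 in C4-HP, 1241 in C4-LP and 1215 in Pr-LP. Pr-HP was above the responder mean of 1227 ± 13.0 (SD, n = 3 populations), and the 3 responder values were almost equal. The log2 difference was 0.74 ± 0.0996 (SE), with an unadjusted p of 0.00188 and an adjusted p of 0.196. Over 8 alternative settings the adjusted p ranged from 0.0482, without the filter on low values, to 0.618. Its other probe set was above the floor in Pr-HP alone (67.6, against 48.7 in C4-HP, 54.1 in C4-LP and 47.4 in Pr-LP). Hmox2, the constitutive enzyme, had 640.4 in Pr-HP, 657.4 in C4-HP, 668.2 in C4-LP and 689.0 in Pr-LP, while its 3 other probe sets were highest in Pr-HP (457.9, 243.0 and 155.4, against 432.6–453.0, 172.2–228.5 and 134.7–152.0 in the responder cells). Macrophages are known for high Hmox1, and the summed intensity of 4 macrophage markers was 1994.5 in Pr-HP, 403.6 in C4-HP, 406.9 in C4-LP and 400.0 in Pr-LP. Of the 4, Cd68 alone carried this difference (1785 in Pr-HP, 176.6–209.7 in the others). Ptprc was under the floor in all 4 populations, and Csf1r and Adgre1 were between 74.8 and 99.7 in all of them. Alpha-cell markers (3 of 4 measured) summed to 10829 units in Pr-HP, 3259 in C4-HP, 3731 in C4-LP and 814.8 in Pr-LP. Gcg, the glucagon gene, was highest in Pr-HP (10552 in Pr-HP, 2915 in C4-HP, 3175 in C4-LP and 501.7 in Pr-LP), whereas Irx1 was lowest there, and Irx2 was under the floor in Pr-HP and Pr-LP. Duct markers (3 of 4 measured) summed to 2615 in Pr-HP, 955.2 in C4-HP, 912.6 in C4-LP and 1051 in Pr-LP. Among them Car2 was high in Pr-HP (1831, against 131.4–161.9), Sox9 was between 687.9 and 736.9 in all populations, and Krt19 was above the floor in Pr-LP alone. The part of these markers, and of the higher Gapdh and Actb controls, in the values of Pr-HP was not tested.

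**Figure D3:**
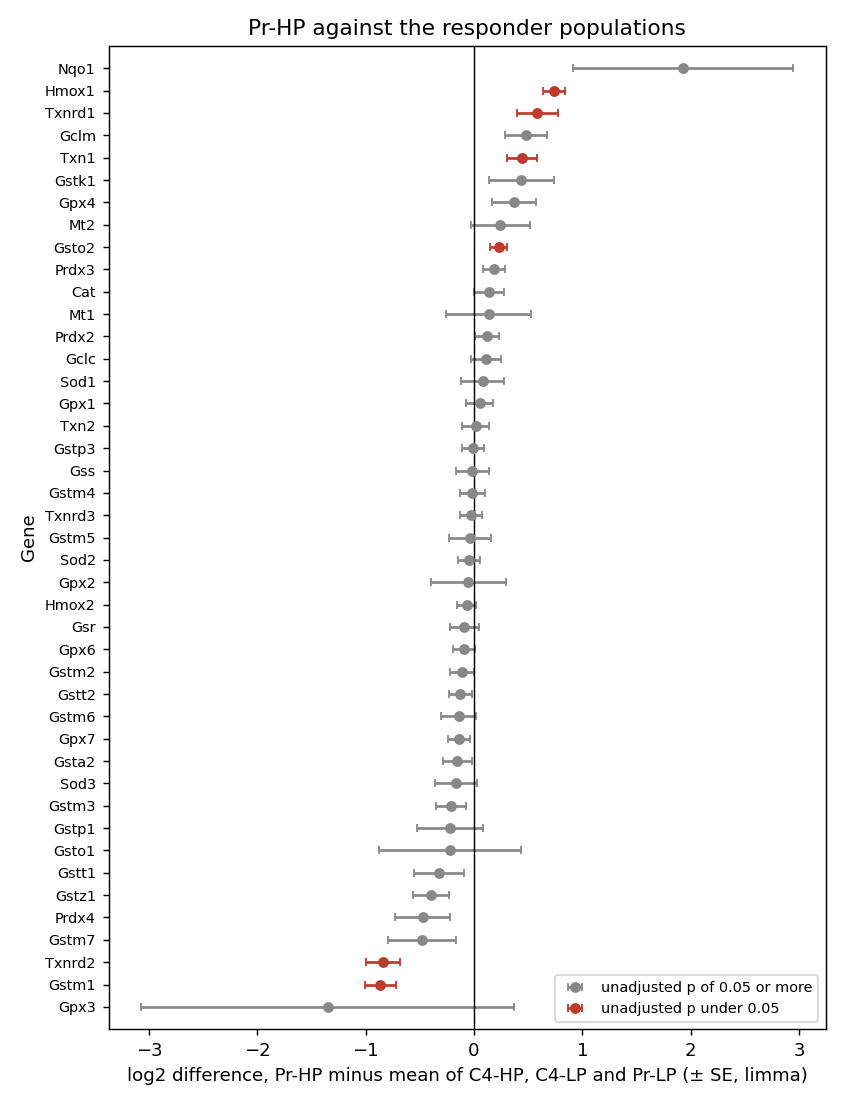
Log2 difference between Pr-HP and the mean of C4-HP, C4-LP and Pr-LP for the 43 tested genes, from limma, with bars of 1 SE. Red points have an unadjusted p under 0.05, and no gene passed after adjustment. Hmox1 at 0.74 and Gstm1 at −0.86 have narrow bars, whereas Gpx3 and Nqo1, which differ among the responder cells, have the widest.

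Cytosolic thioredoxin and its reductase had their highest values in Pr-HP and the mitochondrial reductase its lowest, and none of the 3 passed the adjusted test. Txn1, the cytosolic thioredoxin, had 3380 in Pr-HP, 2739 in C4-HP, 2374 in C4-LP and 2360 in Pr-LP, and Txnrd1, its reductase, had 925.0 in Pr-HP, 690.8 in C4-HP, 640.7 in C4-LP and 531.0 in Pr-LP. Both had the same order of populations, with Pr-HP first and C4-HP next. The log2 differences between Pr-HP and the responder cells were 0.44 ± 0.14 for Txn1 and 0.58 ± 0.19 for Txnrd1 (SE), with adjusted p-values of 0.469 and 0.477. Txnrd2, the mitochondrial reductase, ran the other way, with 215.4 in Pr-HP, 354.4 in C4-HP, 371.8 in C4-LP and 432.0 in Pr-LP. Its log2 difference was −0.84 ± 0.16 (SE), with an unadjusted p of 0.00637 and an adjusted p of 0.295. Pr-HP, with 1 array, was the lowest population for Txnrd2, as it was in 27.8% of all genes tested. Txn2, the mitochondrial thioredoxin, differed by at most 1.14-fold between populations (1475 in Pr-HP, 1469 in C4-HP, 1556 in C4-LP and 1361 in Pr-LP). Txnrd3, best known from testis, differed by 1.05-fold at levels of 2962–3114, while its other probe sets had levels of 376.0–510.1 and 179.5–210.8.

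Gclm, the modifier subunit of the ligase that makes the first and limiting step of glutathione synthesis, had 690.9 in Pr-HP, 583.2 in C4-HP, 456.9 in C4-LP and 454.4 in Pr-LP. A second probe set had 673.0 in Pr-HP, 420.5 in C4-HP, 429.9 in C4-LP and 274.1 in Pr-LP, and another had 183.2, 156.2, 144.0 and 110.5 in the same populations. All 3 probe sets, on 2 chips, were highest in Pr-HP and lowest in Pr-LP, with ratios of Pr-HP over Pr-LP of 1.52, 2.46 and 1.66. The first gave a log2 difference between Pr-HP and the responder cells of 0.48 ± 0.20 (SE, adjusted p = 0.554). Gclc, the catalytic subunit, did not share this order (193.8 in Pr-HP, 176.6 in C4-HP, 196.6 in C4-LP and 166.8 in Pr-LP). Gss was 961.4 in Pr-HP and 906.6–1085 in the responder cells, and Gsr 891.2 in Pr-HP and 897.8–1036 in the responder cells, and Pr-HP was the highest population for neither.

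**Figure D4:**
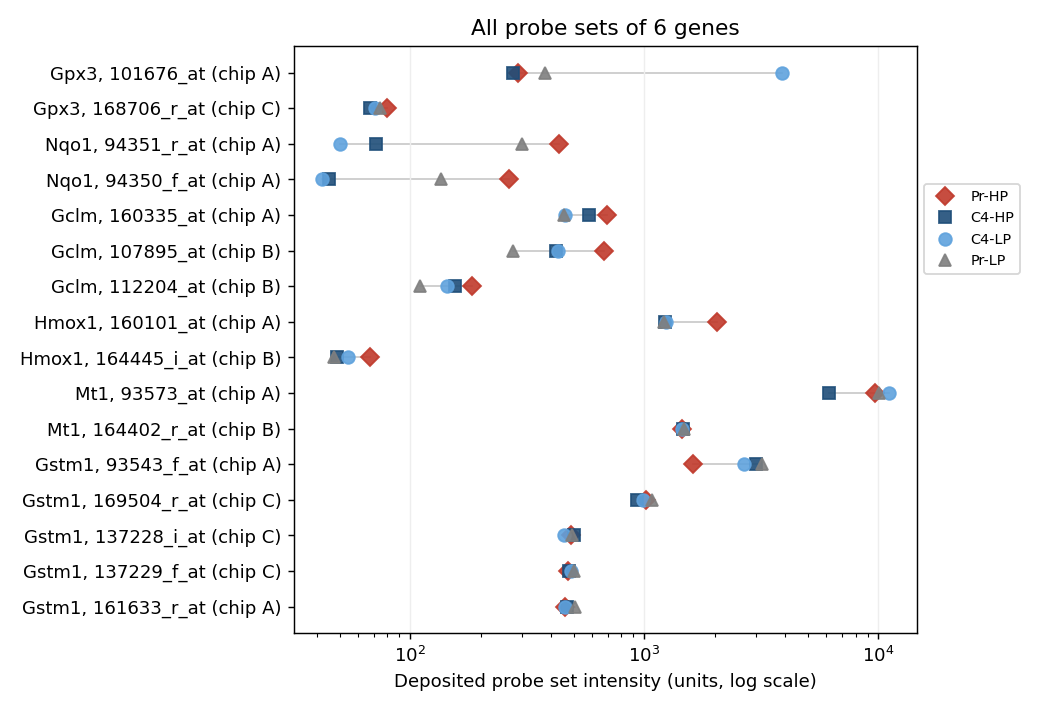
Deposited intensity (units, log scale) for every probe set of Gpx3, Nqo1, Gclm, Hmox1, Mt1 and Gstm1 in the 4 populations, with the probe set used for each gene first. The probe sets of Nqo1 and of Gclm have Pr-HP highest throughout, whereas those of Gpx3, Mt1 and Gstm1 differ from each other.

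The proximal promoters of Gclm and Txnrd1 are shown because both genes were highest in Pr-HP and lowest in Pr-LP, and because both windows hold the core letters of the antioxidant response element, the sequence that Nrf2 binds with a small Maf protein. TGACNNNGC was searched on both strands and is in capitals. It was found in 12.4% of the 32851 windows and in 7 of the 59 windows of 44 genes of the group with a RefSeq window (11.9%), a similar share. The other genes with a match, Gsta3, Gstm5, Gstm7, Mt2 and Sod1, did not have Pr-HP highest and Pr-LP lowest. Hmox1 had that order, but Hmox1 and Nqo1 were not among the genes with a match. A link between motif and level was not tested. In Gclm the match is on the minus strand at −134 to −126 from the start and overlaps 1 match of the metal response element described below. In Txnrd1, where it is in 1 of 3 annotated windows, it is on the minus strand at −92 to −84. The windows are chr3:122245307-122245606 for Gclm and chr10:82858956-82859255 for Txnrd1, both on the plus strand of GRCm38.p6.
Gclm: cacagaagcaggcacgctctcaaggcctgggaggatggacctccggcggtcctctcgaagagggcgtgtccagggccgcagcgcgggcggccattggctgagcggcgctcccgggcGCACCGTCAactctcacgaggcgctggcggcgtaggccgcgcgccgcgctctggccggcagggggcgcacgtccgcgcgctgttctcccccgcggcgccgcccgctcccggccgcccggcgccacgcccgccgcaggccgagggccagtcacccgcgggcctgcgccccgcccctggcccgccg
Txnrd1: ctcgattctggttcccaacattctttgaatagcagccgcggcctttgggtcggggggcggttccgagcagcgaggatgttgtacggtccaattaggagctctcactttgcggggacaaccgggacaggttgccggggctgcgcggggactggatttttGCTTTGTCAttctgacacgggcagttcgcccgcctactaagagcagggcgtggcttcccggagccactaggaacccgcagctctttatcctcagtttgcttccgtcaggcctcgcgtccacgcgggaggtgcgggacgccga

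Glutathione S-transferases formed the largest class, with 21 genes, of which 16 were tested. Pr-HP was the lowest population in 8 of the 16 (50%, against 27.8% of all genes) and the highest in 2 (12.5%, against 29.6%), and the median log2 difference between Pr-HP and the responder cells was −0.15. Of the 8 with Pr-HP lowest, Gstm1, Gstm2 and Gstm3 were read by probe sets that may include RNA of related genes, as given below. Gstm2 and Gstt2 varied by only 1.126-fold and 1.115-fold. Other probe sets of Gstm2 did not have Pr-HP lowest, whereas the other of Gstm3 did. Gstm1, a mu class enzyme chosen for description after its values were seen, had 1616 in Pr-HP, 3001 in C4-HP, 2672 in C4-LP and 3177 in Pr-LP. Pr-HP was 0.548 times the responder mean of 2950 ± 256.4 (SD, n = 3 populations), a log2 difference of −0.86 ± 0.14 (SE) with an unadjusted p of 0.00411 and an adjusted p of 0.257. The 4 other probe sets of Gstm1 varied by 1.07-fold to 1.17-fold between the populations, so that the lower value of Pr-HP was seen with 1 of 5 probe sets. The mu class genes are close copies of each other, and the probe set with the difference is of the type (_f_at) that Affymetrix marks as shared within a gene family. The 4 other probe sets of Gstm1 also carry that suffix or one for relaxed design rules (_r_at or _i_at). None of the 5 is free of this limit. Of the 21 transferases, 6 were represented by a probe set with one of these suffixes, and their values may include RNA of a related gene.

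Apart from Gsto1, described above, the other tested transferases varied by less than Gstm1. Those given here were not on the fixed list of genes to name and were chosen with their values known. Gstz1, which acts in tyrosine breakdown, was 562.4 in Pr-HP, 696.8 in C4-HP, 690.2 in C4-LP and 845.5 in Pr-LP, and Gstk1, the kappa class enzyme, was higher at high passage in both lineages (202.3 in Pr-HP and 197.1 in C4-HP, against 130.2 in C4-LP and 130.7 in Pr-LP). Gsto2, also named after its values were seen, was 110.8 in Pr-HP and 93.9–95.9 in the responder cells, a log2 difference of 0.23 ± 0.08 (SE, adjusted p = 0.497), and its probe set is of the family type. Gstm5 had 3307 in Pr-HP, 3230 in C4-HP, 3988 in C4-LP and 3045 in Pr-LP with a family-type probe set. Gstm7, of the mu class, was highest in C4-LP (116.5 in Pr-HP, 126.7 in C4-HP, 211.4 in C4-LP and 159.5 in Pr-LP) and Gstt1, of the theta class, in Pr-LP (204.0 in Pr-HP, 267.5 in C4-HP, 210.4 in C4-LP and 296.1 in Pr-LP). The tested transferases not described here varied by at most 1.27-fold.

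Passage was compared within each lineage. Pr-HP was past 2-fold lower than Pr-LP in 2 of the 43 genes, Gsto1 (2.19-fold) and Txnrd2 (2.00-fold), which is 4.65% against 1.59% of all genes, and past 2-fold higher in 0, against 2.07%. C4-HP was past 2-fold lower than C4-LP in Gpx3 alone (2.33%, against 0.995%) and past 2-fold higher in 0, against 0.359%. These comparisons have 1 array on each side and no test. Txnrd2 and Gstm1 lay on either side of the limit, at 2.00-fold and 1.97-fold between Pr-HP and Pr-LP.

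**Figure D5:**
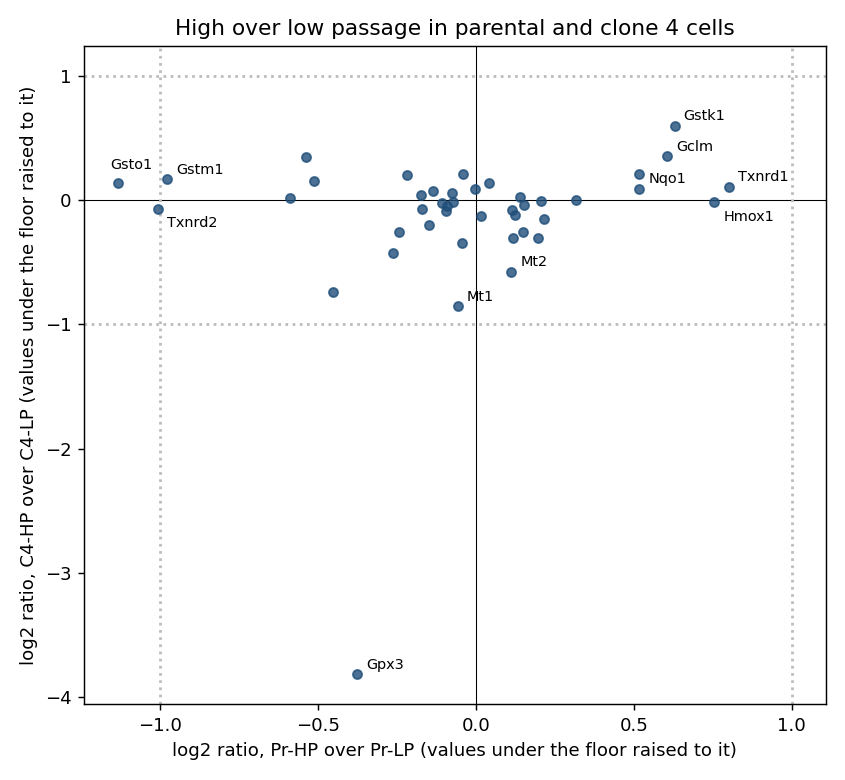
Log2 ratio of high over low passage in the parental cells (horizontal axis) and in clone 4 (vertical axis) for the 43 tested genes, with dotted lines at 2-fold. Most points lie near the centre. Gpx3 is far below in clone 4, Gsto1 and Txnrd2 are past the left line in the parental cells, and Gstk1 and Gclm are at the upper right.

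The metallothioneins, small cysteine-rich proteins that bind zinc and copper, were both lowest in C4-HP with the probe sets used. Mt1 had 9687 in Pr-HP, 6146 in C4-HP, 11090 in C4-LP and 10079 in Pr-LP, and Mt2 had 5508 in Pr-HP, 3644 in C4-HP, 5428 in C4-LP and 5095 in Pr-LP. C4-HP was the lowest population for both genes, 1.80-fold below C4-LP for Mt1 and 1.49-fold for Mt2. The other probe set of Mt1 had 1449–1486 in the 4 populations and did not share the difference. In limma, Pr-HP minus the responder cells gave 0.13 ± 0.39 for Mt1 and 0.24 ± 0.27 for Mt2 (SE, adjusted p = 0.943 and 0.829), and the sign for Mt1 turned without C4-HP (−0.13).

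The promoters of Mt1 and Mt2 are shown because both genes were lowest in the same population and both windows carry several metal response elements, the site of the zinc-sensing factor Mtf1. The core letters TGCACNC and TGCGCNC were searched on both strands and are in capitals. Either was found in 25.7% of all windows and in 17 of the 59 windows of the group (28.8%). Mt1 has 3 matches, at −23 to −17, 3 to 9 and 21 to 27, and Mt2 has 4, at −223 to −217, −128 to −122, −50 to −44 and 5 to 11, the last pair on the minus strand. None of these overlaps a match of the antioxidant response element. The windows are chr8:94178839-94179138 for Mt1 and chr8:94172368-94172667 for Mt2, both on the plus strand of GRCm38.p6.
Mt1: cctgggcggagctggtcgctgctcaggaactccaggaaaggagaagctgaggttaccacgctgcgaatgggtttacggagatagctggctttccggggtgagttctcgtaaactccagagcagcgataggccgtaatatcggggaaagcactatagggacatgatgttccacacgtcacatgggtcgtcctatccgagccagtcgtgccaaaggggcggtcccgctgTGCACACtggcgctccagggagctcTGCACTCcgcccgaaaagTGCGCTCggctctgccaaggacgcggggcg
Mt2: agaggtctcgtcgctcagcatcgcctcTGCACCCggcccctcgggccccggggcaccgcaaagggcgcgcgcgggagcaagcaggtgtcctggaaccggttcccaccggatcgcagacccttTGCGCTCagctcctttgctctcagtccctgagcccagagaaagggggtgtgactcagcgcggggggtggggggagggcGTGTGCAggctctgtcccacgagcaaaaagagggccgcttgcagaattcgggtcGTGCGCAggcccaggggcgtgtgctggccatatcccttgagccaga

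Superoxide dismutases, catalase and the other peroxiredoxins varied by at most 1.32-fold. Sod1, the cytosolic copper-zinc enzyme, had 1770 in Pr-HP, 1820 in C4-HP, 1814 in C4-LP and 1419 in Pr-LP, while a second probe set varied by 1.10-fold. Sod2, the mitochondrial manganese enzyme, was between 244.2 and 257.4 in all 4 populations. Sod3, the extracellular enzyme, had 369.0 in Pr-HP, 384.3 in C4-HP, 488.4 in C4-LP and 380.0 in Pr-LP, with C4-LP highest as for Gpx3 but by a much smaller margin. Catalase (Cat), the peroxisomal enzyme, had 871.9 in Pr-HP, 726.5 in C4-HP, 793.8 in C4-LP and 861.3 in Pr-LP with a family-type probe set, and was under the floor throughout (45.3–48.8) with the other, so that its level in these cells is not settled. Prdx2, the cytosolic peroxiredoxin, was 2968 in Pr-HP and 2615–2837 in the responder cells, and Prdx3, the mitochondrial one, was 1110 in Pr-HP and 953.0–1008 in the responder cells.

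Genes that supply or regulate the antioxidant enzymes were followed in 5 lists with 112 genes in all, of which 97 were measured and 80 tested. In both limma comparisons 0 of the 80 were called. At an unadjusted p of 0.05, 3 were higher in Pr-HP (3.75%, against 5.7% of all genes) and 2 lower (2.5%, against 4.24%), and 5 were higher in clone 4 cells (6.25%, against 3.33%) and 2 lower (2.5%, against 2.39%). A 2-fold difference between any 2 populations was found in 11 of the 80 (13.8%, against 7.35% of all genes), with a median ratio of highest to lowest value of 1.30, against 1.23 for all genes. Among 24 tested partners of glutathione and thioredoxin, 3 were past 2-fold (12.5%). Cbs, which channels homocysteine towards cysteine, had 957.7 in C4-HP and 1084 in C4-LP, against 513.6 in Pr-HP and 374.8 in Pr-LP, and Srxn1, the sulfiredoxin that repairs overoxidised peroxiredoxins, had 481.2 in C4-HP and 632.1 in C4-LP, against 282.6 in Pr-HP and 240.1 in Pr-LP. Both were higher in clone 4 than in parental cells at either passage, the opposite order to Nqo1, with log2 differences of 1.22 and 1.08 and an adjusted p of 0.924 for each in limma. Txnip, the thioredoxin inhibitor that glucose induces in β cells, had 417.7 in Pr-HP, 340.9 in C4-HP, 710.6 in C4-LP and 748.0 in Pr-LP, with both high-passage populations below both low-passage ones.

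Of 13 tested regulators of the antioxidant response, 2 were past 2-fold (15.4%, against 7.35% of all genes). Nfe2l2, which encodes Nrf2, was not one of them, with 387.1 in Pr-HP, 392.9 in C4-HP, 238.2 in C4-LP and 340.2 in Pr-LP, and it did not share the order of Nqo1. Maff, a small Maf protein, had 415.3 in Pr-HP, 168.6 in C4-HP, 416.7 in C4-LP and 249.2 in Pr-LP, and Sesn2, a stress-induced sestrin, had 206.8 in Pr-HP, 365.4 in C4-HP, 223.0 in C4-LP and 438.4 in Pr-LP. Mtf1 varied by 1.08-fold. Among 15 genes of NADPH supply, Me1, the cytosolic malic enzyme, was the 1 gene past 2-fold (6.67%), with 620.0 in Pr-HP, 435.1 in C4-HP, 394.1 in C4-LP and 266.7 in Pr-LP, highest in Pr-HP and lowest in Pr-LP as were Gclm and Txnrd1.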

How the data were processed

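Total RNA of the 4 populations had been labelled and hybridised to Affymetrix U74 version 2 chips. The deposited files hold 1 intensity per probe set and array on a linear scale, and the study names GeneChip software for its analysis. For some probe sets these values differ from those in the study's lists of responder and non-responder genes. Pr-HP over the responder mean was 12.7 for Car2 and 9.19 for Cd68 here, smaller than the study's ratios for the same probe sets. The sources used here do not give how probes were summarised and arrays normalized, and a normalization between arrays would hide a shift shared by all genes. Probe sets were named from the platform annotation, and of 36899 rows 198 controls, 724 with several symbols and 6846 without one were left out of the gene counts. Values were used unscaled. limma 3.58.1 (R 4.3.3) was fitted within each chip on log2 values of 23340 probe sets with 2 residual degrees of freedom (1.93 to 2.48 prior), and the Benjamini-Hochberg adjustment covered all 3 chips. Counts of genes use 1 probe set per gene. The fit was tested on simulated data. Named by rule were genes past the test or 2-fold, Gpx3 and the core enzymes of a fixed list. Outside this rule, Gstm1, Gsto2, Gstz1, Gstk1, Gstm5, Gstm7, Gstt1, Gpx6, Gpx7 and Txnrd3 were given with their values known. The other transferases were summarised. The members, lists and tests were chosen with earlier results of these data known. Promoter windows come from RefSeq, and no genome build is stated for the arrays. Alternatives were other floors, filters and scalings, leaving out each population, and passage as a covariate.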

Additional observations from a re-analysis of the deposited data

How the results depend on the processing

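Over all 23340 probe sets, limma called 19 between Pr-HP and the responder cells. The number was 32 with the floor at 1.0 unit, 0 with the floor at the 40th percentile (2511 at an unadjusted p under 0.05), 108 without the filter on low values and 41 after scaling to a common 2%-trimmed mean. Leaving out 1 responder population gave 0 to 7 calls, 7 of them without C4-LP and 0 without C4-HP or without Pr-LP. Between clone 4 and parental cells limma called 0 (1229 had an unadjusted p below 0.05), and 0 again under every alternative run. These included a fit with passage as a covariate, which sets clone 4 beside parental cells at each passage (1054 with an unadjusted p below 0.05), and in it the unadjusted p was 0.0585 for Gstp1, 0.000743 for Nqo1 and 0.0344 for Prdx4. Replicates could not be paired, as each population has 1 array on each chip. Of the genes named, Hmox1 alone crossed the threshold, with an adjusted p of 0.0482 at a log2 difference of 0.74 without the filter. Of 502 values of single genes under the alternatives, 476 kept the sign of the log2 difference. In 19 of the 26 that did not, the main or the alternative value was under 0.1 in size, and the 7 others are given next. When 1 population was left out, the log2 difference of Pr-HP minus responder cells for Mt1 ranged between −0.13 (without C4-HP) and 0.30. That of clone 4 minus parental cells ranged between −0.26 (without C4-LP) and 3.56 for Gpx3, and between −0.69 and 0.17 (without C4-HP) for Mt1. Without Pr-HP it also turned in sign for 4 genes, with ranges of −0.17 to 0.81 for Gstm1, −0.42 to 0.18 for Gclm, −0.41 to 0.11 for Txn1 and −0.25 to 0.75 for Txnrd2. The cause was not tested. The 2-fold rule gave 3 to 6 probe sets of the group under its alternatives, with Gsto1 lost at the higher floor and Gstm1 gained after quantile normalization. Ratios with a value under the floor, as that of Nqo1 in C4-LP, are bounds. Nqo1 in C4-HP (71.8) and Gsto1 outside Pr-LP (88.8–109.3) were above the floor of chip A but below its 40th percentile.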

Other observations

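Enzymes that produce oxidants and the selenoproteins, which include several of the glutathione peroxidases and the thioredoxin reductases, were also listed. Of 12 tested oxidant-producing enzymes, 2 were past 2-fold (16.7%, against 7.35% of all genes) and 0 were called by limma. Ero1a, the oxidase that forms disulfide bonds in the endoplasmic reticulum, had 4003 in Pr-HP, 1898 in C4-HP, 2693 in C4-LP and 1804 in Pr-LP, and Maob, a mitochondrial monoamine oxidase, had 2389 in Pr-HP, 1919 in C4-HP, 916.7 in C4-LP and 1799 in Pr-LP. Maob was thus lowest in C4-LP, the population in which Gpx3 was highest.

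Of 16 tested selenoproteins and genes of their synthesis, 3 were past 2-fold (18.8%, against 7.35% of all genes) and 0 were called by limma. Scly, which releases selenium from selenocysteine, had 271.7 in Pr-HP, 499.7 in C4-HP, 470.4 in C4-LP and 658.3 in Pr-LP, the same order of extremes as Txnrd2. Sepsecs, which completes the selenocysteine transfer RNA, had 289.8 in Pr-HP, 448.9 in C4-HP, 315.5 in C4-LP and 661.1 in Pr-LP. Selenom, a selenoprotein of the endoplasmic reticulum, had 193.9 in Pr-HP, 219.6 in C4-HP, 410.5 in C4-LP and 205.2 in Pr-LP, and so was high in the same population as Gpx3.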
